A study of Mus musculus with 2 samples.

Results

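The 10 genes described here encode chemokines of macrophages: the CC chemokines Ccl2, Ccl3, Ccl4, Ccl5, Ccl6, Ccl7 and Ccl9 and the CXC chemokines Cxcl1, Cxcl2 and Cxcl10. They were taken by symbol, with every probeset annotated to exactly 1 of these symbols, which gave 14 probesets of 45101 and 10 of the 18193 genes on the array. The cells were RAW264.7, a macrophage-like mouse line, and they carried the retroviral vector MSCV either without an insert or with the microRNA miR-155. Both arms had been infected, put under puromycin selection (7 µg/ml) and cloned by limiting dilution, with serum at 10% in both. The RNA of 5 clones was pooled in each arm and hybridised to 1 Affymetrix array. The study set out to find mRNAs under the control of miR-155. With 1 array per arm there was no replicate, no test and no p-value, and differences between clones cannot be told apart from array noise. Nor can an effect of miR-155 be told apart from differences between the clone pools, their culture or the arrays. In such pooled RNA, fewer cells making a transcript and less transcript per cell cannot be told apart either.

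Chemokines are small secreted proteins that guide leukocytes through G-protein-coupled receptors. They are grouped by the spacing of their first cysteines, adjacent in the CC class and split by another residue in the CXC class. In macrophages most of them are induced through NF-κB when Toll-like receptors are engaged, Cxcl10 is also a classical interferon-induced gene, and miR-155 is itself induced by the same stimuli. A microRNA lowers transcripts that pair with its seed, bases 2 to 8. The chemokine transcripts were not searched for such pairing. The 5′ arm of the miR-155 hairpin is shown because it is the guide strand usually studied, with its seed in capitals (RefSeq, GRCm38.p6); which arm the vector yields was not measured on these arrays.
mmu-miR-155-5p: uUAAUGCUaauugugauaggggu

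The median signal of all probesets was 15.4 with the empty vector and 14.1 with miR-155, in the linear units of the deposited values. Each gene was read from its brightest probeset, and the 9097 genes that lay in the upper 50% by geometric mean signal were kept, which set a signal floor of 25.8. Of 15 macrophage markers 13 were kept, among them Csf1r (6040 and 5095, empty vector first), Cd68 (3385 and 3371), Adgre1 (472 and 289) and Itgam (147 and 220). Their summed signal was 37504 and 37879. With miR-155, 3 genes were up and 2 down by 1.5-fold or more, beside 5.32% and 5.99% of all genes kept. Those up, named after their values were seen, were the lipopolysaccharide co-receptor Cd14 (1728 and 4145, log2 ratio 1.26), Fcer1g (0.70) and Fcgr1 (0.66), and those down were Adgre1 (−0.71) and Spi1 (−0.61, likewise named afterwards). Of 35 markers of other cells (B, T, NK, mast, erythroid and epithelial cells, neutrophils, fibroblasts and endothelium), 1 was kept (Epcam, 37.6 and 32.2), and their summed signal was 254 and 264. No marker was listed at exactly 0. The part of these marker differences in the chemokine values was not tested.

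Among the 10 chemokines, 5 passed the signal filter (Ccl3, Ccl4, Ccl9, Cxcl1 and Cxcl10), and 3 of these, Ccl3, Ccl4 and Cxcl10, were higher with miR-155 by 1.5-fold or more. Cxcl1 was lower by more than 1.5-fold in its brightest probeset, and Ccl9 was within 1.5-fold. Among all genes kept, 5.32% were higher and 5.99% lower by this measure, and after centring the median probeset ratio on 0 these shares were 6.79% and 4.75%. At 2-fold the chemokine counts were 0 higher, against 1.92% of all genes kept, and 1 lower, against 1.43%. The 3 higher chemokines lay just under 2-fold, so the count at 2-fold turned to 2 after that centring (Ccl3 and Ccl4) and to 1 (Ccl3) with quantile normalisation. The shares of all genes at 2-fold were not computed for those 2 settings. The median log2 ratio of the 5 chemokines was 0.89, beside −0.05 for all genes kept. It was 0.58 with an offset of 50, 0.57 in the upper 25% of signal, where 2 of the 5 were left, and 0.59 for all 10 with no filter.

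**Figure D1:**
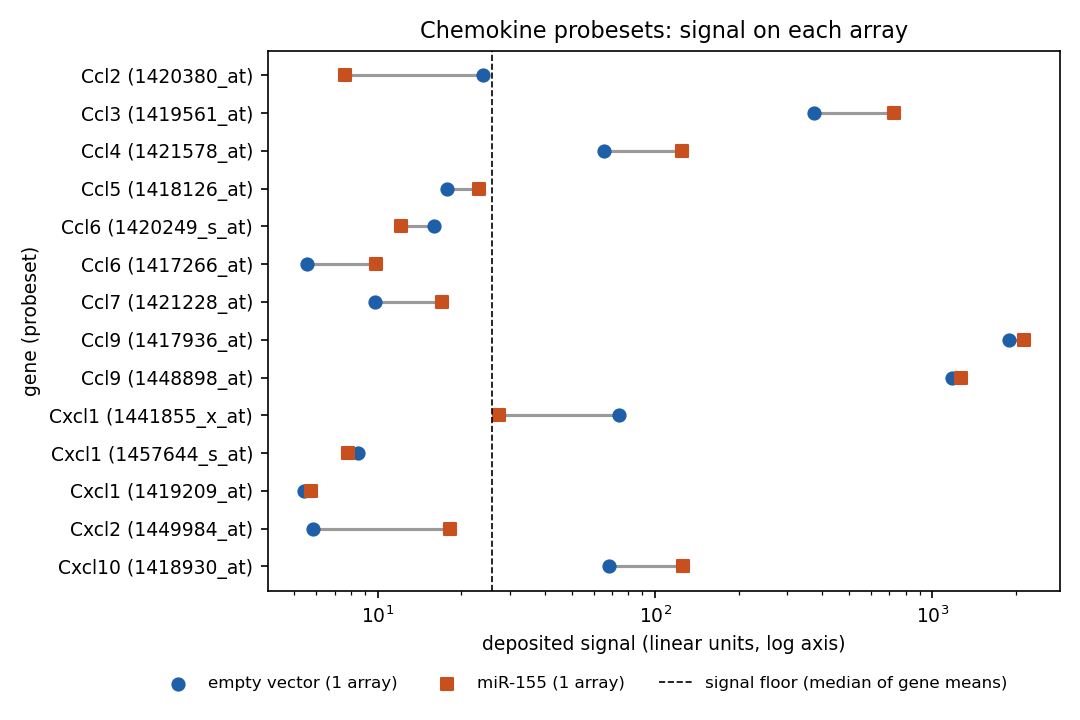
Deposited signal of each chemokine probeset on the empty-vector array (circles) and the miR-155 array (squares), on a log axis, with the signal floor of 25.8 as a dashed line. Ccl3, Ccl4, Cxcl10, both Ccl9 probesets and 1 of the 3 Cxcl1 probesets lie right of the floor on both arrays, and all other readings lie left of it.

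Ccl3 and Ccl4 encode a pair of inflammatory CC chemokines that attract monocytes and T cells, and Ccr1 is a receptor of Ccl3. Ccl3 (probeset 1419561_at) read 373 with the empty vector and 728 with miR-155, a 1.95-fold higher signal (log2 ratio 0.97). As a measure of spread, the local SD is a robust SD of the ratios of the 500 genes with the closest signal, and it was 0.20 for Ccl3. Of those 500 genes, 4, Ccl3 included, had a ratio at least as high, and of all genes kept 185 did. Among the chemokines, this was the ratio that stood farthest from its local median, by 5.19 local SDs.

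Ccl4 (1421578_at) read 65.4 and 125, 1.92-fold higher on the miR-155 array (log2 ratio 0.94). At its dimmer signal the local SD was wider, 0.36, and 13 of the 500 nearest genes had a ratio at least as high. The ratios of Ccl3 and Ccl4 differed by 0.03, beside a combined local SD of 0.41. The 2 genes are neighbours on chromosome 11 and their annotated spans overlap in the RefSeq table. Each was read by 1 probeset, so neither ratio has a second reading within the gene.

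Cxcl10, the interferon-induced ligand of Cxcr3 that attracts activated T cells, read 68.0 and 126 (1418930_at). It was 1.85-fold higher on the miR-155 array (log2 ratio 0.89, local SD 0.36), and 14 of the 500 nearest genes had a ratio at least as high. It lay 0.05 from Ccl4 and 0.07 from Ccl3, both less than the combined local SDs of 0.51 and 0.41. The 3 higher chemokines thus differed from one another by less than the local spread, which was narrowest for Ccl3.

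Ccl9, a ligand of Ccr1 expressed constitutively in macrophages, was the bright member with little difference. Its probeset 1417936_at read 1890 and 2135 (log2 ratio 0.18, local SD 0.14), and the second probeset, 1448898_at, read 1177 and 1268 (log2 ratio 0.11, local SD 0.15). Both readings were slightly higher on the miR-155 array, and 44 of the 500 genes nearest to the first had a ratio at least as high. The ratio of Ccl3 exceeded that of Ccl9 by 0.79, beside a combined local SD of 0.25. Ccl4 and Cxcl10 exceeded it by 0.76 and 0.71, beside combined local SDs of 0.39.

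Cxcl1, an attractant of neutrophils through Cxcr2, gave readings that differed between its probesets. The brightest, 1441855_x_at, read 73.9 and 27.3, 2.70-fold lower on the miR-155 array (log2 ratio −1.43, local SD 0.54). The platform's naming marks such an _x_at probeset as one with probes that may also match other transcripts, and the annotation gives it no accession. The other probesets read 8.47 and 7.80 (1457644_s_at) and 5.40 and 5.73 (1419209_at), below the floor on both arrays and nearly equal between them. With all 3 probesets averaged the log2 ratio was −0.49, within 1.5-fold, and with an offset of 50 it was −0.68. The lower count of 1 among the chemokines therefore rested on a single probeset.

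**Figure D2:**
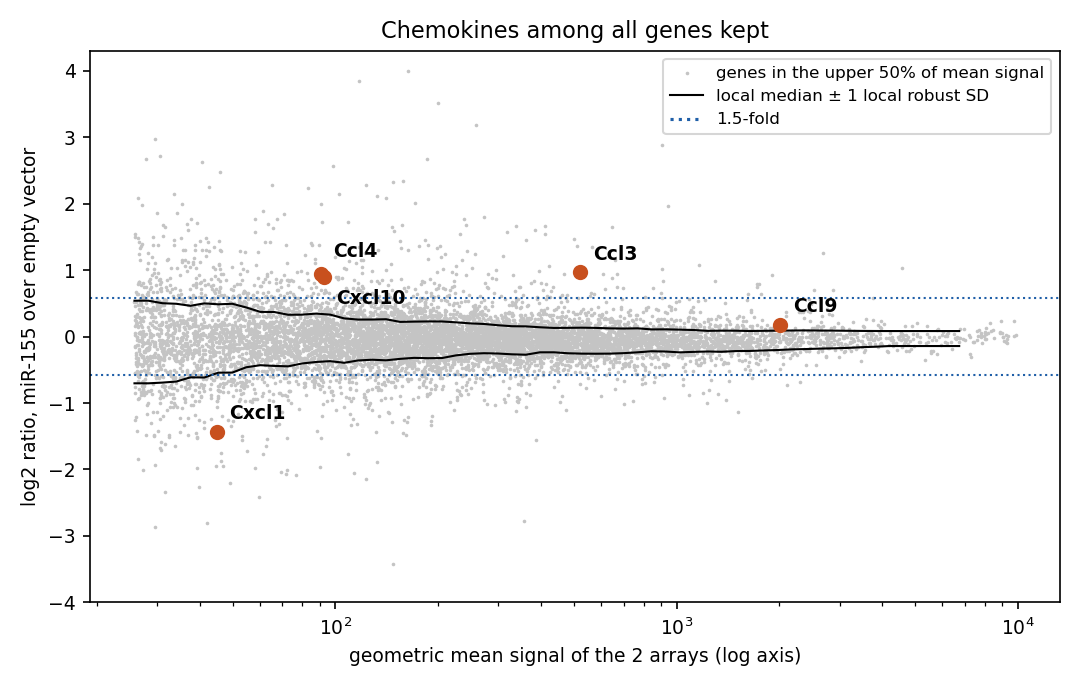
Log2 ratio of the miR-155 signal over the empty-vector signal (vertical axis) against the geometric mean signal (horizontal log axis) for the 9097 genes kept (grey), with the 5 chemokines kept in colour. Black lines give the local median plus and minus 1 local SD and dotted lines 1.5-fold; Ccl3, Ccl4 and Cxcl10 lie above the upper dotted line, Cxcl1 below the lower and Ccl9 between them.

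The other 5 chemokines had both readings below the floor in every probeset, and only their signals are given. Ccl2, the main attractant of monocytes through Ccr2, read 24.0 with the empty vector and 7.61 with miR-155. Ccl7, which acts on the same receptor and neighbours Ccl2 on chromosome 11, read 9.77 and 17.0. The pair of neighbours thus read in opposite directions, both at dim signal.

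Cxcl2, the other neutrophil attractant that acts through Cxcr2 and a neighbour of Cxcl1 on chromosome 5, read 5.86 and 18.2. Ccl5, an attractant of T cells and monocytes, read 17.8 and 23.2, and its geometric mean of 20.3 was the closest to the floor among the dim members. Ccl6, a Ccr1 ligand of mouse macrophages, read 15.9 and 12.1 in its brighter probeset and 5.58 and 9.84 in the other, so its probesets disagreed in direction. At such signals large ratios were frequent: among the 500 of all 18193 genes nearest to Cxcl2, 133 were 1.5-fold or more up and 148 down, and among those nearest to Ccl2 the numbers were 105 and 155. With no filter on dim genes, 5 of the 10 chemokines passed 1.5-fold upwards and 2 downwards, beside 17.1% and 21.2% of all genes in that setting.

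Promoters of chemokines that passed the filter are shown as a description, and a link of their sequence to the ratios was not tested. RefSeq windows were given for 6 of the 10 genes (Ccl3, Ccl6, Ccl9, Cxcl1, Cxcl2 and Cxcl10), and not for Ccl2, Ccl4, Ccl5 and Ccl7. The 250 bases before the annotated start are printed 5′ to 3′ on the gene's strand for Ccl3 (chr11:83649379-83649628, minus strand), Cxcl10 (chr5:92348890-92349139, minus), Ccl9 (chr11:83578637-83578886, minus) and Cxcl1 (chr5:90890995-90891244, plus), in GRCm38.p6. Capitals mark matches to the NF-κB consensus or to the core of the interferon-stimulated response element (ISRE), GAAANNGAA, each searched on both strands.
Ccl3: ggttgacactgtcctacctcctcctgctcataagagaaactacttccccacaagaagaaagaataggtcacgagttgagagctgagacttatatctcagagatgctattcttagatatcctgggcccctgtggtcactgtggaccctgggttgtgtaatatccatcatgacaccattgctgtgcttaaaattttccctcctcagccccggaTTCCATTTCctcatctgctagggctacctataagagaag
Cxcl10: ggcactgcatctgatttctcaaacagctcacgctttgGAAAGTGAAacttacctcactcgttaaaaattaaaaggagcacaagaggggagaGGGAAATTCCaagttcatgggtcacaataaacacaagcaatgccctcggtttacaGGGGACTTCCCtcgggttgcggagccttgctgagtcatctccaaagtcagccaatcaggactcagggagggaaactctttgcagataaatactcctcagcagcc
Ccl9: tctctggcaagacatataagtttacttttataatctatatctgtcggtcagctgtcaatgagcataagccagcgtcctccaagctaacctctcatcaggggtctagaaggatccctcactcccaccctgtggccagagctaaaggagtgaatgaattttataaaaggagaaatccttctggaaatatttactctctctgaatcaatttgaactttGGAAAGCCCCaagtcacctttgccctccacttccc
Cxcl1: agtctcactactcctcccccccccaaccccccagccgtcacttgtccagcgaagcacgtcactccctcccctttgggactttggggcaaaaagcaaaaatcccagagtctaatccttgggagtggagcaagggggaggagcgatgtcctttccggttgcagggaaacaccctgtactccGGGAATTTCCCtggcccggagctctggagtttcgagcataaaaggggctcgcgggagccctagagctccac

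The Cxcl10 window held the ISRE core at 213 to 205 bases before the start and NF-κB matches at 159 to 150 and, as an overlapping pair, at 104 to 94 bases before it. Its AP-1 match (TGANTCA, both strands) lay 74 to 68 bases before the start. Cxcl1 and Cxcl2 shared the stretch GGGAATTTCCC, which matches the NF-κB consensus on both strands, at 71 to 61 and 97 to 87 bases before their starts. The Ccl3 window held no NF-κB match and 1 ISRE core on the opposite strand, 39 to 31 bases before the start, and the Ccl6 window held neither. Ccl9 had an NF-κB match on the opposite strand at 35 to 26 bases and an AP-1 match at 53 to 47 bases before the start.

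In all, 4 of the 6 windows held the NF-κB consensus, 2 the ISRE core, 2 the AP-1 site and 1 (Ccl9) the TATA box letters TATAAA, searched on the sense strand. The TATAAA match of Ccl9 lay 92 to 87 bases before the start. Of 32851 windows of the same 250 bases in the RefSeq table, 7.25% held the NF-κB consensus, 7.13% the ISRE core, 6.75% the AP-1 site and 7.59% the TATA box. A match is a run of letters, not a measured binding site. The chemokines with an NF-κB match included Cxcl10, which was higher, Ccl9, which was within 1.5-fold, and Cxcl1, which was lower by its brightest probeset.

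Of 25 other chemokine genes on the array, 4 were kept, with a median log2 ratio of 0.26. Of these, 1 passed 1.5-fold upwards and 0 downwards, beside 5.32% and 5.99% of all genes kept. Pf4, platelet factor 4, read 30.4 and 53.5 (log2 ratio 0.82, local SD 0.57), close to the floor. Cxcl14 read 860 and 1142 (0.41, local SD 0.17, and 0.27 in its further probeset). Ccl25, known from thymus and gut, had a log2 ratio of 0.11, and Cxcl16, which is made as a membrane-bound chemokine and scavenger receptor, read 458 and 448 (−0.03, and −0.15 in its further probeset). All 4 were read above the floor on both arrays.

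The other 21 were too dim for a ratio. In the cluster of Ccl2 and Ccl7 on chromosome 11 lie Ccl8 (6.63 and 20.6), Ccl11 (0.55 and 1.36), Ccl12 (1.06 and 1.44) and Ccl1 (6.10 and 11.7). In that of Cxcl1 and Cxcl2 on chromosome 5 lie, beside Pf4, Cxcl3 (0.36 and 8.51), Cxcl5 (2.48 and 0.54), Cxcl15 (2.07 and 1.41) and Ppbp (12.0 and 1.69). Near Cxcl10 lie Cxcl9, another interferon-induced Cxcr3 ligand (9.06 and 12.5 in its brighter probeset), and Cxcl11 (8.80 and 15.1). None of these dim neighbours reached the floor on either array. Cxcl17 (11.2 and 36.1) and Ccl17 (19.2 and 29.7), named after their values were seen, reached it on the miR-155 array only.

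Of 21 chemokine receptor genes measured, 4 were kept. Of these, 0 passed 1.5-fold upwards and 1 downwards, beside 5.32% and 5.99% of all genes kept. Ccr2, the receptor of Ccl2 and Ccl7, read 139 and 77.3 (log2 ratio −0.84, local SD 0.34). The other 3 Ccr2 probesets lay in the same direction, at −0.69, −0.43 and −0.31. All 4 Ccr2 probesets read above the floor on both arrays. Cx3cr1, the fractalkine receptor, read 1733 and 1530 (−0.18), and Cxcr3, the receptor of Cxcl10, 113 and 121 (0.11). The scavenging receptor Ackr4 had a log2 ratio of 0.52, but 0.04 in a further probeset of like signal. Ccr1, the receptor of Ccl3, Ccl5, Ccl6 and Ccl9, read 17.6 and 35.3 in its brighter probeset and 8.29 and 4.71 in the other, and Cxcr2 read 1.39 and 1.93; both fell below the filter on mean signal and are named for their ligands.

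A list of chemokine receptor signalling held G-proteins, receptor kinases and arrestins, lipid-signalling enzymes and other kinases among its members. The 27 genes kept from it had a median log2 ratio of −0.07. Of these, 1 passed 1.5-fold upwards and 3 downwards, beside 5.32% and 5.99% of all genes kept. The lower ones were the phospholipase Plcb3 (107 and 41.9, log2 ratio −1.35, local SD 0.40), the Rac exchange factor Prex1 (−0.74) and the PI3-kinase γ regulatory subunit Pik3r5 (−0.73). The kinase Fgr read 35.6 and 64.1 (0.85, local SD 0.54), and next came Stat3 and the Rac exchange factor Dock2, both at 0.32.

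The programmes that induce chemokines are given beside the members, from the same pair of arrays. Of 22 inflammatory NF-κB genes kept, 9 passed 1.5-fold upwards and 1 downwards, beside 5.32% and 5.99% of all genes kept. The median log2 ratio of the 22 was 0.50. The highest were the lectin receptor Clec4e (1.68), the prostaglandin synthase Ptgs2 (1.65) and Cd40 (1.64), and the lowest were Nfkbid (−0.62), Clec4d (−0.41) and Zfp36 (−0.19). Ccl3, Ccl4 and Cxcl10, at 0.97, 0.94 and 0.89, lay between those ends, and so did Ccl9, at 0.18, below the list median. Cxcl1, at −1.43 in its brightest probeset, lay below the lowest gene of the list. Of 28 interferon-stimulated genes kept, 24 passed 1.5-fold upwards and 0 downwards, beside the same shares of all genes kept, and their median was 0.95. Among genes with both readings above the floor, they ran from Trim30a (1.76), Usp18 (1.54) and Irf7 (1.43) to Ifit2 (0.45), Irf1 (0.35) and Ddx58 (0.29). Cxcl10, at 0.89, lay near the median of that list, and Ccl4 and Ccl3, at 0.94 and 0.97, lay nearer to it. The link of either programme to the chemokine ratios was not tested.

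**Figure D3:**
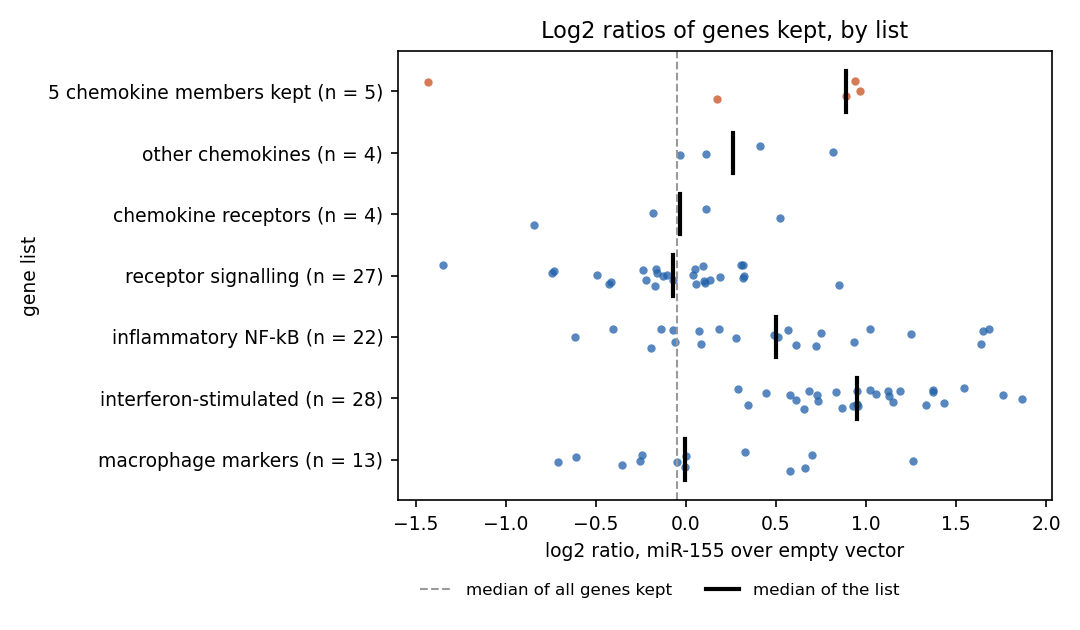
Log2 ratio of the miR-155 signal over the empty-vector signal for the genes kept in each list, 1 point per gene, with the list median as a black bar and the median of all genes kept, −0.05, as a dashed line. The chemokine median of 0.89 (n = 5) rests on Ccl3, Ccl4 and Cxcl10 and is 0.58 with an offset of 50; the receptor and receptor-signalling medians lie near the dashed line.

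**Figure D4:**
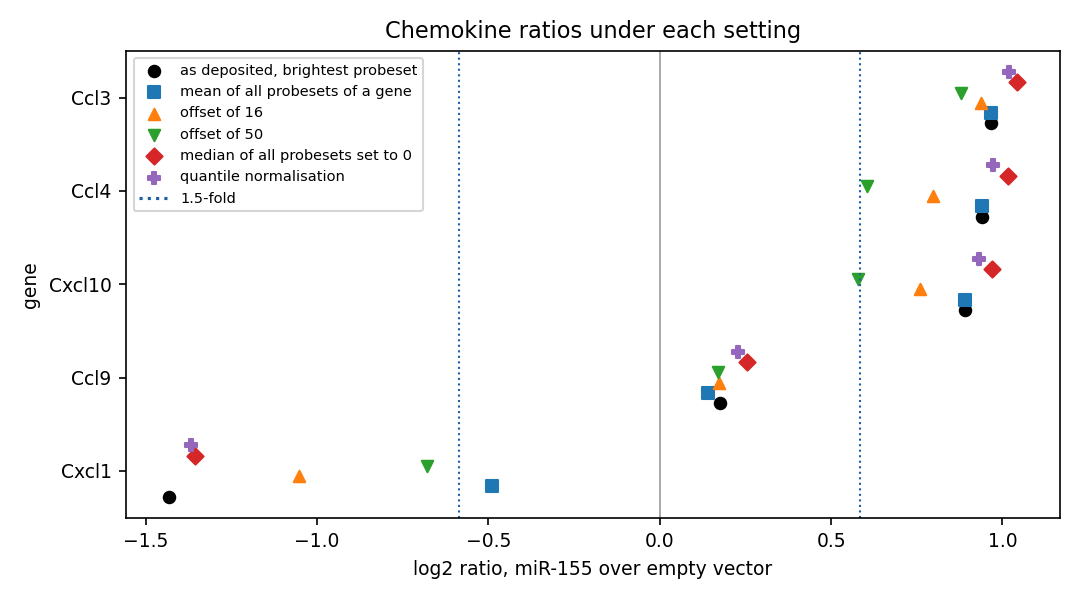
Log2 ratio of the 5 chemokines kept under 6 settings, with dotted lines at 1.5-fold. Ccl3 stays between 0.88 and 1.04, Ccl4 between 0.60 and 1.02 and Cxcl10 between 0.58 and 0.97, while Cxcl1 ranges from −1.43 to −0.49.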

How the data were processed

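RNA of 2 pools of RAW264.7 clones was measured on 1 Affymetrix array each. Values were deposited as linear probeset intensities, and their summarisation, background correction and scaling were not given in the sources used here. Symbols came from the platform annotation and were checked by Entrez identifier against RefSeq (GRCm38.p6), where 34741 of 34945 single-symbol probesets matched and no symbol changed. Control probesets (64), probesets with several symbols (932, none naming a member) and unlisted ones (9160) were left out. Ratios are miR-155 over empty vector, on the log2 scale, without an offset. The local SD is the scaled median absolute deviation of the ratio among the 500 nearest genes of those kept (of all genes, for dim probesets) and measures neither clone nor culture variation.

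The members and lists were chosen with earlier results of these data known. Every member was named, and of each other list the 3 highest and 3 lowest genes with both readings above the floor; of the macrophage markers 4 were set by name. Receptors and neighbours outside this rule are named for their ligands or position. The alternatives were averaged probesets, offsets of 16 and 50, centring on the median, quantile normalisation, readings raised to the floor, the upper 25% of signal and no filter. The local SD, the 2-fold calls and the ratios were tested on simulated data. The motif search, the list counts, the offsets and the raised floor were not. All steps were run in Python 3.11 with numpy 2.4.6 and pandas 2.3.3.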

Additional observations from a re-analysis of the deposited data

How the results depend on the processing

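Of 54 values recomputed under the alternatives, 47 stayed within the local SD or within 1.5 times the count, 7 moved and none changed sign. Part of the 47 could not move, so the tally is no measure of robustness. Averaging leaves Ccl3, Ccl4 and Cxcl10, each with 1 probeset, unchanged, and centring shifts every ratio by the same small amount. The log2 ratio of Cxcl1 was −0.49 with averaged probesets and −0.68 with an offset of 50. The median of the chemokines kept, 0.89, ranged from 0.57 to 0.97. The number of chemokines at least 1.5-fold higher, 3 as reported, was 5 of 10 with no filter, beside 17.1% of all genes. It was 1 of 2 in the upper 25% of signal, beside 2.42% of genes there, where only Ccl3 and Ccl9 were left. With an offset of 50 it was 2, since Cxcl10 fell to 0.58, beside 2.25% of the genes kept. The number at least 1.5-fold lower, 1 as reported, was 2 with no filter, beside 21.2% of all genes. It was 0 with averaged probesets (10.0% of the genes kept), where Ccl5 was kept in place of Cxcl1. Among the upper 25% of genes it was 0, beside 2.09%. Raising readings to the floor altered no value, since no chemokine kept had a reading below it. No paired analysis was possible because each arm had 1 array, and for the same reason no array could be left out. Signal over background limits the dim chemokines: no detection calls were used here, and the local SD was 0.54 at the signal of Cxcl1 against 0.14 at that of Ccl9.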
